A study of Glycine max with 18 samples.

Results

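Described here, in germinating soybean seeds, are 3 genes annotated as enzymes of flavonol or isoflavone synthesis, out of 45955 genes in the deposited table. They were UGT2 (gene46225 in the numbering of the study, annotated as an isoflavone 7-O-glucosyltransferase 1-like gene, with GmIF7GT2 as a RefSeq synonym), LOC100806672 (gene55554, annotated as flavonol synthase/flavanone 3-hydroxylase-like) and HIDH (gene2676, 2-hydroxyisoflavanone dehydratase). The study listed them among abundant genes that differed between its lines at stage 2 of germination, and the additional files paired each gene number with 1 RefSeq identifier in the table. RefSeq places them on chromosomes 16, 20 and 1. The stage 2 values that chose these genes are therefore a description, and tests were made only on stages 1 and 3. All 3 passed the filter on low values.

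The seeds came from 2 low-phytate mutants of soybean (Glycine max). TW-1-M arose naturally within TW-1, which itself goes back to gamma-irradiated seed of the variety Taiwan 75. According to the methods of the study, both carry the same short deletion in the myo-inositol phosphate synthase gene GmMIPS1, so all libraries are from mutants and no library of Taiwan 75 was used here. The labels give a higher seed field emergence for TW-1-M and a very low one for TW-1. RNA of the seeds was sequenced at stage 1 (the imbibed seed), stage 2 (reactivation of metabolism, which the labels put 12 h after imbibition) and stage 3 (a root of 1 mm), with 3 replicates each, so that the 6 groups TW-1-M-1, TW-1-M-2, TW-1-M-3, TW-1-1, TW-1-2 and TW-1-3 make up 18 libraries. The methods of the study place stage 2 sooner after stage 1 than the labels do, and which time holds was not settled. No source says whether the replicates were separate lots of seed, so the p-values measure the spread between these libraries, which may be technical.

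Flavonoids are made from phenylalanine through the general phenylpropanoid steps, chalcone synthase and chalcone isomerase. In legumes the route then divides. Isoflavone synthase and 2-hydroxyisoflavanone dehydratase make the isoflavones daidzein and genistein, which a glucosyltransferase and a malonyltransferase convert to the conjugates that soybean seeds store, while flavanone 3-hydroxylase and flavonol synthase lead to flavonols such as quercetin and kaempferol. Isoflavone reductase and prenyltransferases lead on to pterocarpan phytoalexins, the defence compounds of soybean.

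Expression is given as FPKM, which scales the fragments of a gene to its length and to the size of the library, as the authors deposited it. The summed FPKM of a library lay between 683231 and 1296620, and 21206 to 25452 genes had at least 1 FPKM. The table holds no read counts, so the depth behind a single value is unknown. Of 14 seed reserve genes listed as a check of the tissue, 9 were in the table, and their summed FPKM showed seed RNA in every group, although CG-3 and BBI were at or near 0. It was 899 to 1309 in TW-1-M-1, 369 to 399 in TW-1-M-2 and 69.5 to 174 in TW-1-M-3. In TW-1 it was 1340 to 2057 at stage 1, 909 to 1442 at stage 2, and 938, 241 and 326 in the 3 libraries of stage 3. Of 6 genes of green leaf tissue listed beside them, RBCS1, RBCS2 and CAB3 were in the table. Their summed FPKM was 26.0 to 75.2, 192 to 343 and 354 to 705 at stages 1, 2 and 3 in TW-1-M, and 42.1 to 214, 62.1 to 138 and 67.6 to 973 in TW-1, where TW-1-3 replicate 1 had the 67.6. ANR1 and ANR2, anthocyanidin reductases of the seed coat, stayed at 0.06 FPKM or less. TW-1-3 replicate 1 stood apart from its group. On the first principal component it lay at -89.9, among the stage 1 libraries, whereas the other TW-1-3 libraries lay at 123.1 and 98.0. On the second it lay at -87.6, apart from all other libraries, which lay between -29.7 and 46.8. TW-1-2 replicate 1 lay at -116, against -20.0 and -24.2 for the other TW-1-2 libraries. Most line differences and changes over the span that rest on either library are given with and without it. The genes most like each of the 3 and the ratios from stage to stage are given with all libraries only.

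Over the germination span the transcripts of all 3 genes fell in TW-1-M, as did 24.3% of all genes tested, and the call for HIDH was lost in 7 of 12 alternative analyses. By symbol, 8 other genes tested were of the isoflavone branch, and 5 of them were called as lower too. Without TW-1-M-3 replicate 1, only 1 gene of the whole pathway list was called as lower, instead of 7. Among all 27150 genes, 4731 to 6758 were called as lower with any 1 library left out, and 6599 with none. LOC100813308 and LOC100775382, which carry isoflavone reductase annotations in the study, were called as higher. At stages 1 and 3 the difference between the lines did not pass the test for any of the 3 genes.

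By its annotation UGT2 belongs to the glucosyltransferases that attach glucose to the 7-hydroxyl of isoflavones and so make daidzin and genistin. In TW-1-M the FPKM of the 3 libraries was 639, 309 and 166 at stage 1, 106, 112 and 76.2 at stage 2, and 113, 74.4 and 68.0 at stage 3. In TW-1 it was 750, 377 and 710 at stage 1, 579, 377 and 456 at stage 2, and 247, 127 and 107 at stage 3. At stage 2 every TW-1-M library was below every TW-1 library, whereas the lines overlapped at stages 1 and 3. The share of all genes without overlap was counted only for stage 3 against stage 1 of TW-1-M. Other separations of libraries, here and below, therefore cannot be weighed against all genes. The stage 2 libraries of TW-1-M lay with those of its stage 3, while the stage 2 libraries of TW-1 lay with those of its stage 1.

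The stage 2 mean of UGT2 was 98.3 ± 19.3 FPKM in TW-1-M and 471 ± 102 FPKM in TW-1 (SD, n = 3 each), a ratio of 0.209. Its log2 fold change there was -2.25, and it was -2.09 without TW-1-2 replicate 1. No test was made on these values, since the stage 2 difference chose the gene. The FPKM that the study printed for UGT2 are several fold lower in both lines, though TW-1-M is again the lower. Its printed values for LOC100806672 and HIDH lie close to those given here. Why those of UGT2 differ was not tested. In the order of group means, TW-1-1 came first (612 ± 205 FPKM), followed by TW-1-2 and TW-1-M-1 (371 ± 243 FPKM), then TW-1-3 (160 ± 76.0 FPKM), TW-1-M-2 and TW-1-M-3 (85.2 ± 24.3 FPKM). No group in this order differed from the next by more than the larger of their SDs. In the deposited values UGT2 was an abundant transcript. Only 203 of the 27150 genes that passed the filter had a higher mean in TW-1-1, but 1494 had one in TW-1-M-3.

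Several relatives of UGT2 lie close to it. In the gene order of RefSeq, IF7GT3, IF7GT and IF7GT5 are its neighbours at 1, 3 and 6 genes' distance. IF7GT3 and IF7GT were not matched to the table, so how the authors' counting divided reads among near copies is unknown and the values of UGT2 are uncertain to that extent. IF7GT5 was in the table, with group means between 21.0 and 31.8 FPKM in TW-1-M and between 26.5 and 33.3 FPKM in TW-1.

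LOC100806672 is annotated as an enzyme of the flavonol branch. Enzymes of this kind oxidise flavanones to dihydroflavonols or dihydroflavonols to flavonols. In TW-1-M its FPKM was 156, 133 and 92.4 at stage 1, 88.9, 74.2 and 66.6 at stage 2, and 37.3, 54.2 and 25.7 at stage 3. In TW-1 it was 163, 196 and 84.2 at stage 1, 200, 179 and 107 at stage 2, and 426, 38.5 and 47.1 at stage 3. The 3 stages of TW-1-M did not overlap with each other, and each stage was lower than the one before. The TW-1 libraries of stages 1 and 2 overlapped, and at stage 3 only replicate 1 was high. The lines did not overlap at stage 2, with 76.6 ± 11.3 FPKM in TW-1-M and 162 ± 49.1 FPKM in TW-1 (SD, n = 3 each), a ratio of 0.472 and a log2 fold change of -1.03. Without TW-1-2 replicate 1 that fold change was -0.85.

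In the order of its group means LOC100806672 ran from TW-1-3 (170 ± 221 FPKM) through TW-1-2, TW-1-1 (148 ± 57.3 FPKM), TW-1-M-1 (127 ± 32.2 FPKM) and TW-1-M-2 to TW-1-M-3 (39.1 ± 14.3 FPKM). The first 4 groups did not differ from their neighbours by more than the larger SD. The drop at stage 2 of TW-1-M and the further drop at its stage 3 were larger than it. The first place of TW-1-3 rested on replicate 1, for without that library the mean was 42.8 FPKM.

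HIDH catalyses the last step to the isoflavone skeleton, the loss of water from the product of isoflavone synthase. In TW-1-M its FPKM was 442, 226 and 222 at stage 1, 150, 159 and 99.9 at stage 2, and 104, 200 and 59.9 at stage 3. In TW-1 it was 161, 279 and 218 at stage 1, 578, 145 and 111 at stage 2, and 318, 82.1 and 122 at stage 3. The lines overlapped at every stage. Replicate 1 was the highest of the TW-1 libraries at stages 2 and 3.

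For HIDH the difference by which it was selected depended on 1 library. The stage 2 means were 136 ± 31.7 FPKM in TW-1-M and 278 ± 260 FPKM in TW-1 (SD, n = 3 each), a ratio of 0.490 and a log2 fold change of -0.65. Without TW-1-2 replicate 1 the TW-1 mean was 128 FPKM, and the log2 fold change was 0.07. In the order of group means TW-1-M-1 (297 ± 126 FPKM) was followed by TW-1-2, TW-1-1 (219 ± 59.1 FPKM), TW-1-3 (174 ± 126 FPKM), TW-1-M-2 and TW-1-M-3 (121 ± 71.5 FPKM). No neighbours in this order differed by more than the larger SD.

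**Figure D1:**
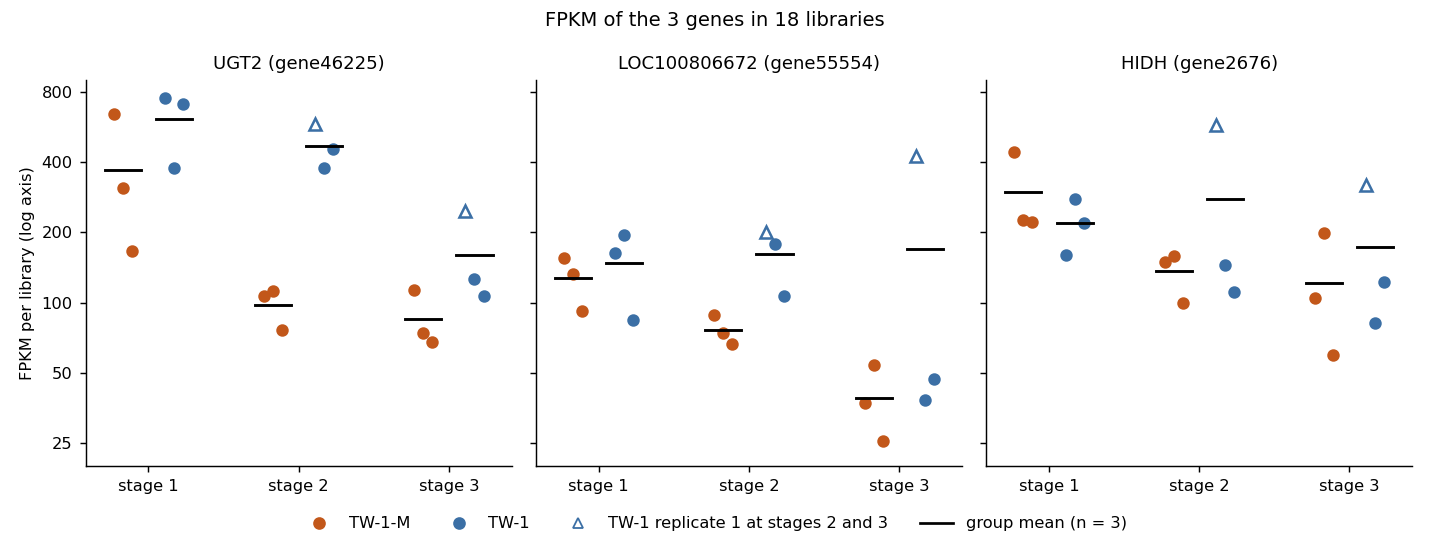
FPKM of UGT2, LOC100806672 and HIDH in each of the 18 libraries on a log axis, by germination stage, with TW-1-M left of TW-1. Points are libraries, open triangles are replicate 1 of TW-1-2 and TW-1-3, and black bars are means of 3 libraries; the TW-1-M points of all 3 genes lie lower at stage 3 than at stage 1, and the triangles lie above the other TW-1 points of their stage.

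The list of abundant genes from which the 3 were taken required more than 100 FPKM. Of the other flavonoid pathway genes with a mean above it in either line at stage 2, 9 in all, 7 had the lower mean in TW-1-M. With ratios of 0.358 for CHI1A, 0.380 for G4DT, 0.410 for C4H and 0.466 for IF7MaT, 4 of them were on the same side of 0.5 as the 3 selected genes, and IFS2 lay just past it at 0.518. IFS1 and PAL2.1 had a ratio of 1.06 each. These ratios depended on TW-1-2 replicate 1. Without that library 5 of the 9 had the lower mean in TW-1-M and 0 had a ratio under 0.5, with 0.808 for CHI1A, 1.51 for G4DT, 0.926 for C4H, 0.636 for IF7MaT and 0.941 for IFS2. The ratios are a description, and none of the 9 genes passed the test at stage 2 with all libraries, though PAL2.1 did without replicate 1. The summed FPKM of the seed reserve genes given above was also lower in every TW-1-M-2 library than in every TW-1-2 library, although KTI1 and GY3 had the higher mean in TW-1-M-2 (79.5 and 1.92 FPKM, against 59.3 and 0.15 FPKM in TW-1-2). The summed FPKM of the leaf genes was higher in every TW-1-M-2 library through CAB3, whereas the mean of RBCS1 was 30.1 FPKM in TW-1-M-2 and 36.9 FPKM in TW-1-2. The part of either list in these differences was not tested.

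The lines were next compared at the stages that the choice of genes did not use. At stage 1 the log2 fold change of TW-1-M over TW-1 was -0.87 (SE 0.52) for UGT2, -0.16 (SE 0.36) for LOC100806672 and 0.39 (SE 0.34) for HIDH. The adjusted p-values were 0.48, 0.85 and 0.62 (limma, Benjamini-Hochberg over 27150 genes). None of the 3 genes was called, beside 0.468% of all genes tested. By the rule of the study, an unadjusted p-value under 0.05 with an absolute log2 fold change above 1, none was called either, beside 4.07% of all genes. The 95% interval for UGT2 ran from -2.09 to 0.36, so that a difference of several fold at stage 1 could not be told from none with these libraries.

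At stage 3 the log2 fold change of TW-1-M over TW-1 was -0.84 (SE 0.42) for UGT2, -1.28 (SE 0.91) for LOC100806672 and -0.45 (SE 0.64) for HIDH. The adjusted p-values were 0.54, 0.57 and 0.73. Again none of the 3 genes was called by the adjusted p-value, beside 0.0184% of all genes, or by the rule of the study, beside 5.03%. Without TW-1-3 replicate 1 the log2 fold changes were -0.48, -0.18 and 0.10. The mean of LOC100806672 was 39.1 FPKM in TW-1-M-3, against 170 FPKM in TW-1-3 with all 3 libraries and 42.8 FPKM without replicate 1.

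Stage 3 was then compared with stage 1 within each line, also without the stage 2 libraries. In TW-1-M all 3 genes fell. The log2 fold change of stage 3 over stage 1 was -1.93 (SE 0.48, adjusted p = 0.013) for UGT2, -1.71 (SE 0.33, adjusted p = 0.0052) for LOC100806672 and -1.37 (SE 0.48, adjusted p = 0.043) for HIDH by limma. As ratios of means these are 0.229, 0.307 and 0.409. Each gene was lower in all 3 libraries of stage 3 than in any library of stage 1, as were 30.5% of all genes. Of all genes 24.3% were called as lower, so a fall over this span was common. For HIDH the call was lost in 7 of 12 alternative analyses, with adjusted p-values between 0.015 and 0.13 over the 12. Leaving out TW-1-M-1 replicate 1 or 2, or TW-1-M-3 replicate 1 or 3, was enough, with log2 fold changes of -1.05, -1.53, -1.35 and -0.96. Over the same span in TW-1-M the summed FPKM of the seed reserve genes was lower and that of the leaf genes higher at stage 3, without overlap of the stages, and their part in the change was not tested. In bulk RNA of seeds, fewer cells of a type and less RNA per cell cannot be told apart.

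In TW-1 the log2 fold change of stage 3 over stage 1 was -1.96 (SE 0.46) for UGT2, -0.59 (SE 0.92) for LOC100806672 and -0.54 (SE 0.54) for HIDH. With adjusted p-values of 0.077, 0.66 and 0.49, none of the 3 genes was called, beside 0.991% of all genes. UGT2 had an unadjusted p-value of 0.0041, and its libraries of stages 3 and 1 did not overlap. TW-1-3 replicate 1 decided these calls. Without it the log2 fold changes were -2.32, -1.69 and -1.09, with adjusted p-values of 0.0019, 0.0079 and 0.024. All 3 genes were then called as lower at stage 3, beside 25.9% of all genes.

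**Figure D2:**
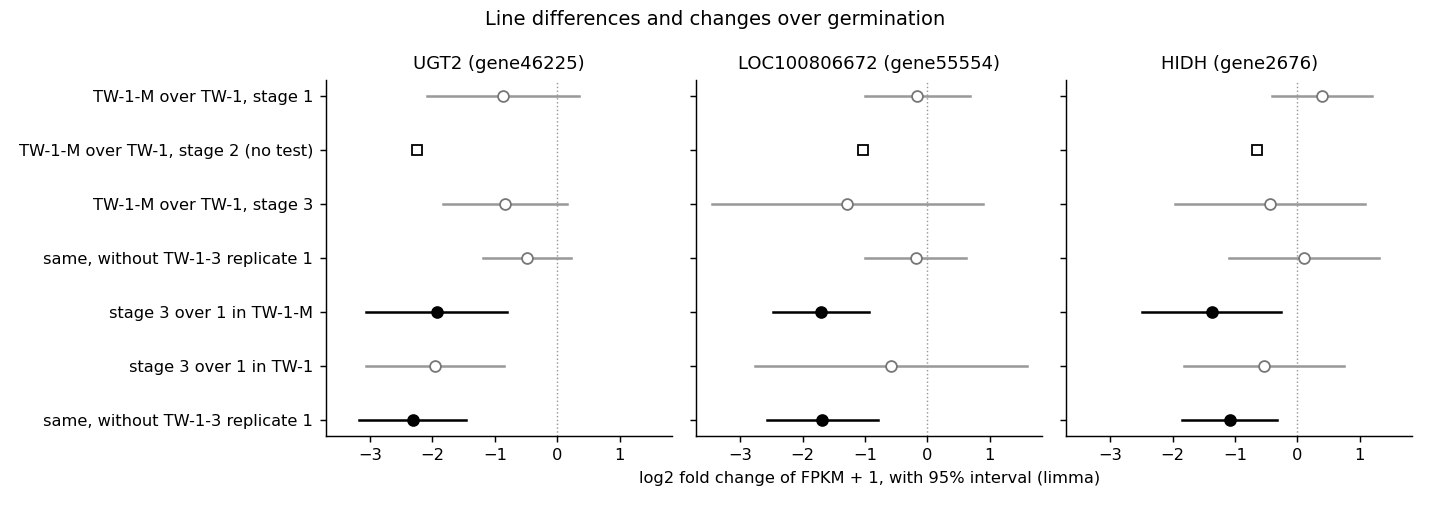
Log2 fold changes of FPKM + 1 for the 3 genes with 95% intervals from limma, for the line difference at each stage and for stage 3 over stage 1 within each line, with and without TW-1-3 replicate 1. Filled circles passed an adjusted p-value of 0.05, open circles did not, and open squares are the stage 2 differences by which the genes were selected, given without interval; the filled circles are the stage changes in TW-1-M and those in TW-1 without that library.

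The difference between the lines in this change was tested as an interaction over the 12 libraries of stages 1 and 3. It was 0.02 (SE 0.71) for UGT2, -1.12 (SE 1.06) for LOC100806672 and -0.84 (SE 0.77) for HIDH on the log2 scale, with adjusted p-values of 0.997, 0.90 and 0.89. None of the 3 genes was called, beside 0.00368% of all genes. Without TW-1-3 replicate 1 the interaction was 0.38, -0.02 and -0.29. For UGT2 the 95% interval with all libraries ran from -1.53 to 1.58.

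Taken step by step, in TW-1-M the mean of UGT2 at stage 2 was 0.265 of that at stage 1, and the mean at stage 3 was 0.867 of that at stage 2. HIDH had ratios of 0.458 and 0.892 for the same steps. LOC100806672 had 0.603 and 0.510. In TW-1 the ratios were 0.769 and 0.341 for UGT2, 1.10 and 1.05 for LOC100806672, and 1.27 and 0.626 for HIDH. Those of TW-1 include replicate 1 of stages 2 and 3. These ratios include the stage 2 libraries that served to choose the genes, and no test was made on them.

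The other genes of the pathway were taken by symbol from RefSeq. The list held 77 genes, of which 41 were in the table. UGT2 and HIDH are among these, which leaves 39 others, and 28 of them passed the filter. No chalcone synthase or chalcone reductase gene was among the 28. CHS3, CHS3B and CHS6 were in the table but did not pass the filter. Between the lines, FLS1 was the only one of the 28 called at stage 2, beside 19.2% of all genes. Without TW-1-2 replicate 1, FLS1, CHI1B2 and PAL2.1 were called there, all 3 higher in TW-1-M. Of all 27150 genes, 2316 were then called as higher and 2224 as lower. None was called at stage 1 or stage 3, where 3 genes at each stage had an unadjusted p-value under 0.05. The median log2 fold change of TW-1-M over TW-1 among the 28 was 0.01 at stage 1, -0.42 at stage 2 and -0.34 at stage 3, against 0.00, 0.08 and 0.01 over all genes. Without TW-1-2 replicate 1 the stage 2 median was -0.04, and without TW-1-3 replicate 1 the stage 3 median was 0.12.

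FLS1 is a flavonol synthase of soybean and shares the enzyme name with LOC100806672, but its values ran the other way. It had 0, 0.28 and 2.42 FPKM at stage 1, 6.87, 7.57 and 3.57 at stage 2, and 17.02, 4.84 and 8.30 at stage 3 in TW-1-M. In TW-1 it had 0, 0.10 and 0.85 at stage 1, 0.07, 0.41 and 0.34 at stage 2, and 0.15, 3.02 and 3.87 at stage 3. The lines did not overlap at stage 2, where the log2 fold change was 2.42 (SE 0.28, adjusted p = 0.0048, limma) and remained 2.30 without TW-1-2 replicate 1. FLS1 also rose at stage 3 over stage 1 in TW-1-M, by 2.60 (adjusted p = 0.0074). Per length, FLS1 at its highest was still below LOC100806672 at its lowest, with 17.02 and 25.65 FPKM as the extreme libraries.

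Over the germination span in TW-1-M, 13 of the 28 genes were called, 7 lower and 6 higher at stage 3, beside 24.3% lower and 29.5% higher among all genes. The 7 that fell were C4H, CHI1B2, IFS1, IFS2, IF7MaT, IFR and IFR2. C4H (cinnamate 4-hydroxylase) is a general phenylpropanoid gene, and CHI1B2 carries a chalcone isomerase symbol. The other 5 belong, by symbol, to the isoflavone branch. The 6 that rose were 4CL1 and 4CL2 (4-coumarate:CoA ligases), CHI1B1 and CHI3A1 (by symbol chalcone isomerases), F3H (flavanone 3-hydroxylase) and FLS1. All 6 had means of 10.1 FPKM or less in every group. Without TW-1-M-3 replicate 1, 1 gene was called as lower and 4 as higher, and without TW-1-M-3 replicate 3, 4 were lower and 5 higher. Among all 27150 genes, 4731 to 6758 were lower and 5641 to 8218 higher with any 1 library left out.

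IFS1 and IFS2, isoflavone synthases that begin the branch, had the highest mean FPKM of the 28 genes over the 18 libraries. IFS2 had 163, 735 and 100 FPKM in TW-1-M-3, against 2311, 1333 and 1373 in TW-1-M-1. Its log2 fold change was -2.81 (SE 0.69, adjusted p = 0.013, limma). IFS1 had 652, 1513 and 647 FPKM in TW-1-M-3, against 3275, 2382 and 2119 in TW-1-M-1, with a log2 fold change of -1.56 (adjusted p = 0.014). The stages did not overlap for either gene.

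IF7MaT, the malonyltransferase that acts on isoflavone glucosides, had 38.4, 87.3 and 25.0 FPKM in TW-1-M-3, against 254, 145 and 114 in TW-1-M-1. The log2 fold change was -1.86 (adjusted p = 0.016). IFR, an isoflavone reductase by symbol, had 7.50, 10.5 and 24.9 FPKM in TW-1-M-3, against 139, 73.5 and 74.9 in TW-1-M-1, and fell by 2.76 on the log2 scale (adjusted p = 0.0030). IFR2 fell by 1.33 (adjusted p = 0.044). G4DT, a prenyltransferase of glyceollin synthesis, had a log2 fold change of -0.53 (adjusted p = 0.44), and the glucosyltransferase gene IF7GT5 had -0.31 (adjusted p = 0.37), both without passing the test.

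In TW-1 none of the 28 genes was called over the same span, and 4 had an unadjusted p-value under 0.05. Without TW-1-3 replicate 1, 6 were lower and 7 were higher at stage 3, beside 25.9% lower and 32.5% higher among all genes. The 6 were 4CL3, CHI1A, IFS2, IF7MaT, IFR and IFR2. The 7 were CHI1B1, CHI2-A, CHI3A1, F3H, FLS1, ANS2 and ANS3. Of these, 4 of the lower and 4 of the higher genes were called in the same direction in TW-1-M. IFS2 had 3126 FPKM in TW-1-3 replicate 1 but 458 and 468 in the other libraries, against 1368, 1522 and 1941 in TW-1-1. No gene of the 28 passed the test of the interaction, in which 3 had an unadjusted p-value under 0.05.

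**Figure D3:**
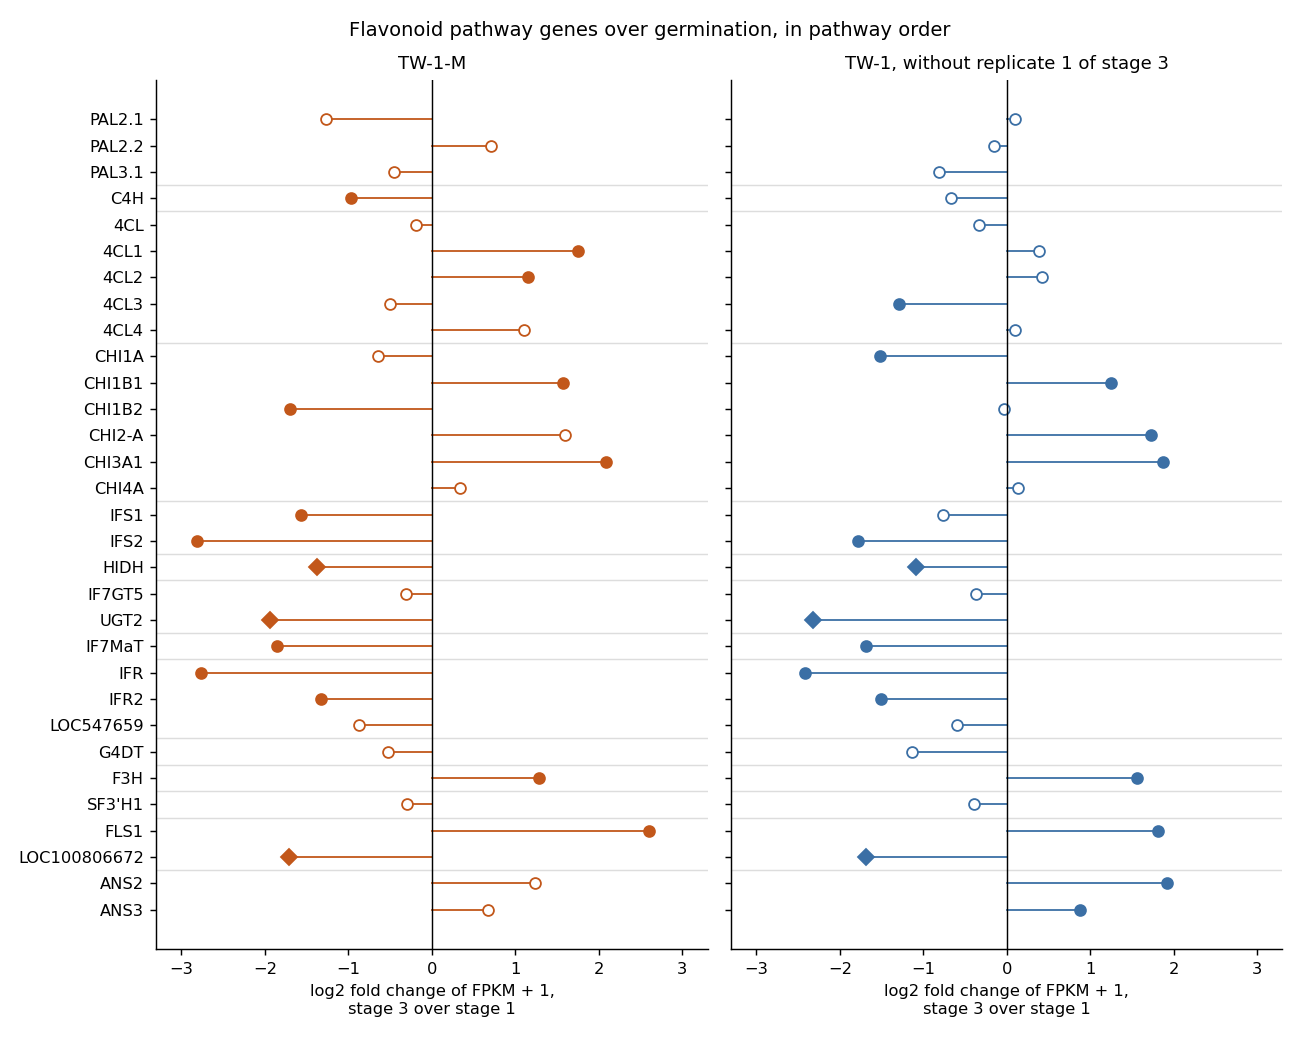
Log2 fold changes of FPKM + 1 at stage 3 over stage 1 for the 28 pathway genes tested and the 3 selected genes, in pathway order from PAL to ANS, in TW-1-M (left) and in TW-1 without replicate 1 of stage 3 (right). The order holds no chalcone synthase gene, and LOC100806672 was placed beside FLS1 by its annotation. Diamonds are UGT2, HIDH and LOC100806672, circles are the other genes, and filled symbols passed an adjusted p-value of 0.05; IFS2, HIDH, UGT2, IF7MaT, IFR, IFR2 and LOC100806672 are filled on the lower side in both panels, and FLS1, F3H, CHI1B1 and CHI3A1 on the higher side.

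**Figure D4:**
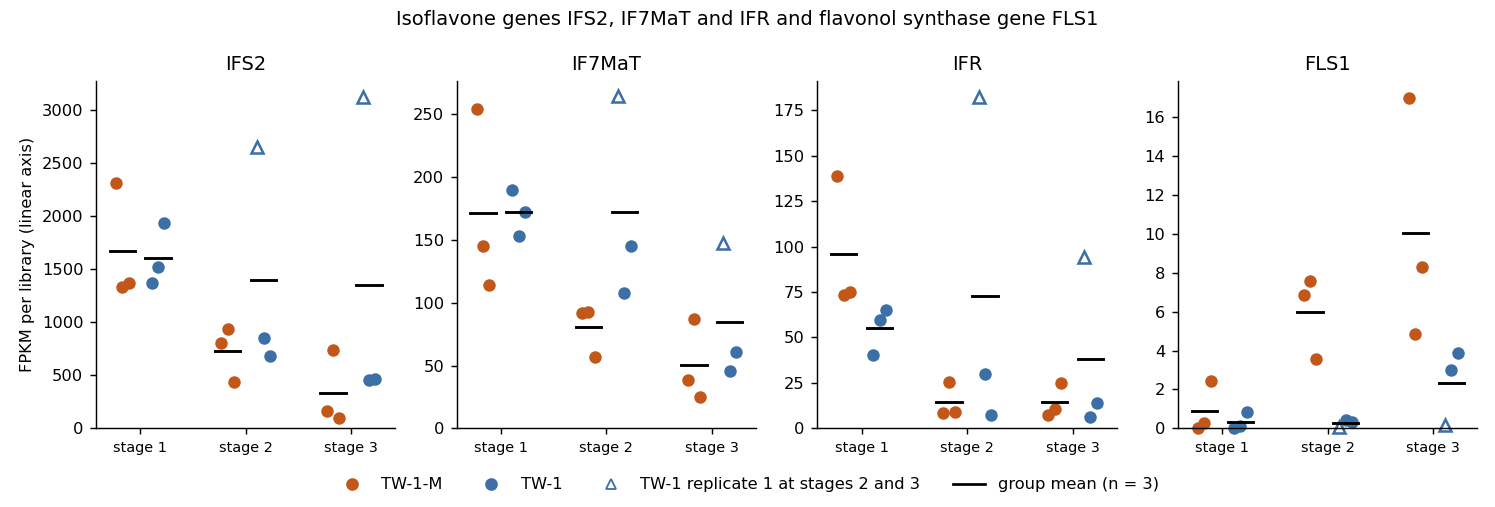
FPKM of IFS2, IF7MaT, IFR and FLS1 in each library on linear axes, by stage, with TW-1-M left of TW-1, points as libraries, open triangles as replicate 1 of TW-1-2 and TW-1-3, and bars as means of 3 libraries. In TW-1-M the means of IFS2 and IF7MaT fall and that of FLS1 rises over the stages, while that of IFR falls by stage 2 and then stays level. The triangles of the first 3 genes lie above the other TW-1 libraries of their stage.

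A further list came from the annotations in the additional files of the study, which hold flavonoid terms for 35 genes of the table. The study chose these genes on the same libraries, so their counts are no independent evidence. Besides the selected genes 28 were tested, and 6 of the 35 are also in the list by symbol. At stage 2, 5 were higher and 1 was lower in TW-1-M, beside 19.2% of all genes called in either direction, and none was called at stage 1 or 3. The 5 became 1 without TW-1-M-2 replicate 2 or replicate 3 and with no filter, and 0 with FPKM of at least 1 in every library. Among the 5 were FLS1 and LOC100799796 (gene17625), which has the same annotation as LOC100806672. The log2 fold change of LOC100799796 was 0.60 (adjusted p = 0.045, limma). Its call was lost without TW-1-2 replicate 1 (0.56, adjusted p = 0.074). LOC100799796 averaged 0.18, 1.07 and 2.22 FPKM at stages 1, 2 and 3 in TW-1-M, and 0.08, 0.37 and 1.48 FPKM in TW-1. Its log2 fold change at stage 3 over stage 1 was 1.44 in TW-1-M (adjusted p = 0.0043), opposite in sign to that of LOC100806672. The 1 lower gene at stage 2 was LOC100804044, annotated as 4-coumarate--CoA ligase-like 9, at a log2 fold change of -1.90 (adjusted p = 0.0037). Over the span in TW-1-M, 13 of the 28 were higher and 3 lower at stage 3, beside 29.5% and 24.3% of all genes. In TW-1 none was called, but without TW-1-3 replicate 1, 11 were higher and 5 lower, beside 32.5% and 25.9%. Among the 13 were LOC100813308 (3.15, adjusted p = 0.0014, limma) and LOC100775382 (1.90, adjusted p = 0.024), annotated as isoflavone reductase-like and as a homolog. IF7MaT was among the 3.

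Across the 18 libraries the log2 levels of LOC100806672 and HIDH had a Pearson correlation of 0.76, those of UGT2 and LOC100806672 one of 0.70, and those of UGT2 and HIDH one of 0.61. The libraries share groups, stages and scaling, so these values are descriptions. As deviations from group means, the 3 correlations were 0.70, 0.47 and 0.48, and without TW-1-3 replicate 1 they were 0.65, 0.18 and 0.34. None of the 3 genes was among the nearest of another. HIDH stood at place 4015 in likeness to LOC100806672, while LOC100806672 stood at place 1251 in likeness to HIDH. For UGT2, LOC100806672 stood at place 5846, and UGT2 at place 5415 in likeness to LOC100806672.

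The genes most like each of the 3 were taken as the 5 with the highest Pearson correlation over the 18 libraries. For UGT2 they had values between 0.964 and 0.976. The first was LOC100777421, and gene12212, annotated as classical arabinogalactan protein 4-like, was among them. For LOC100806672 the values were between 0.957 and 0.973, with LOC100790329 first and LOC100814158, annotated as an F-box protein, second. For HIDH they were between 0.926 and 0.949, with LOC100813425, annotated as a probable LRR receptor-like protein kinase, first. A correlation above 0.9 was found with 569 genes for UGT2 and 455 for LOC100806672 but with 17 for HIDH.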

How the data were processed

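RNA of 18 seed libraries was measured. The authors used Trimmomatic for trimming and TopHat for mapping to a soybean assembly. They deposited FPKM per gene from cuffquant and cuffnorm, rounded to 2 decimals, so whole reads per gene were not recovered. The study gives the reads of each library, but the depth behind a single value is unknown. Each column was matched to its sample by name, and none was left over.

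Of 45955 identifiers 36767 matched the RefSeq table of the later assembly Glycine_max_v4.0 by accession without version, which served for symbols, chromosomes and gene order only. A gene was tested if 3 or more libraries reached 1 FPKM, which left 27150 genes. Their values, as log2(FPKM + 1), entered limma 3.58.1 (lmFit, eBayes with trend, R 4.3.3) on the groups compared, two-sided, with Benjamini-Hochberg adjustment over all genes tested and a threshold of 0.05. Fold changes are on this log2 scale, which understates those of genes near 0. The fit was tested on simulated data. SDs are over 3 libraries. The genes and lists were chosen with earlier results of these data known. Named besides the 3 genes were the 5 genes most like each, and pathway genes that passed the test, with others named as examples after their values were seen. Alternatives were a pseudocount of 0.1, no filter, FPKM of at least 1 in every library, quantile normalization, all 18 libraries fitted together, the replicate number as a block, each library left out, the ratio of mean FPKM, and Spearman correlation. A search for relatives by protein sequence was not run, since no sequences were used here.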

Additional observations from a re-analysis of the deposited data

How the results depend on the processing

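At stages 1 and 3 no alternative called a line difference for UGT2, LOC100806672 or HIDH. Leaving out 1 library at a time gave log2 fold changes from -0.52 to 0.080 for LOC100806672 at stage 1, from -0.89 to 0.10 for HIDH at stage 3, and from -1.11 to 0.073 for HIDH at stage 2 (no test). For the fall in TW-1-M at stage 3 over stage 1, LOC100806672 was called under all 12 alternatives. UGT2 was called under 11, the exception being no filter (-1.93, adjusted p = 0.062). HIDH was called under 5, and it was lost with no filter (-1.37, adjusted p = 0.13), quantile normalization (-1.19, adjusted p = 0.064) and all 18 libraries in one fit (-1.37, adjusted p = 0.069), and had -1.82 to -0.96 with 1 library left out. In TW-1, UGT2 (-1.96) was called with FPKM of at least 1 in every library (adjusted p = 0.048) and with all 18 libraries in one fit (adjusted p = 0.0061). With 1 library left out the change in TW-1 was -2.32 to -1.72 for UGT2, -1.69 to 0.030 for LOC100806672 and -1.09 to -0.12 for HIDH, and the interaction for UGT2 was -0.45 to 0.52. The cause of these changes was not tested.

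Of the 28 pathway genes, 1 to 3 were higher in TW-1-M at stage 2 with 1 library left out, and 0 with FPKM of at least 1 in every library, a filter that removes FLS1. Over the span in TW-1-M that filter left 0 higher, and no filter left 1 lower. With 1 library left out 4 to 9 were higher and 1 to 8 lower, the 1 being without TW-1-M-3 replicate 1. Over all genes these ranges were 5641 to 8218 and 4731 to 6758. In TW-1, 0 to 7 pathway genes were higher and 0 to 6 lower with 1 library left out, and 3 were higher with all 18 libraries in one fit. Quantile normalization moved the median of all genes by -0.13 over the span in both lines and turned the direction of none of the 13 pathway genes called in TW-1-M.

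Same-numbered libraries did not deviate together in every pair (correlations from -0.22 to 0.53 at stage 1, 0.07 to 0.28 at stage 2 and -0.58 to 0.20 at stage 3), and every library correlated best with its own number only at stage 2. With the replicate number as a block, no call on the 3 genes changed (HIDH in TW-1-M, -1.37, adjusted p = 0.047), and 5 pathway genes were higher and 7 lower over the span in TW-1-M. Over all genes, the calls went to 14 at stage 1 (127 without the block), 7686 at stage 2 (5213), 0 at stage 3 (5) and 1 over the span in TW-1 (269). Over the other alternatives they varied most in TW-1 over the span, where 0 to 8820 genes were higher. By Spearman correlation, 2, 1 and 2 of the 5 genes most like UGT2, LOC100806672 and HIDH were the same.

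The absence of read counts limits what can be said of genes near 0 FPKM, and 3 libraries per group leave wide intervals. Relatives by protein sequence, and the stricter identity planned for them, were not run.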
